A study of Mus musculus with 10 samples.

Results

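Neuropeptide precursors and their receptors were followed in mouse brain after controlled cortical impact, a model of traumatic brain injury in which a tip is driven into the surface of the cortex on one side. The set was a list of 44 genes, 19 precursors and 25 receptors, each read from the brightest array row that named it alone. All but the precursor genes Grp and Agrp had such a row, which left 42 of the 30142 genes tested: 17 precursors and 25 receptors. Each of the 42 had a single row. The 2 groups were tissue from the impact site (ipsilateral, 5 arrays) and from the matching region of the other hemisphere (contralateral, 5 arrays), taken 7 days after a 2 mm impact. Per the labels, both came from adult male and female mice of 8 to 12 weeks, and the labels name no strain, genotype or drug. The animals of both groups had received the impact, and tissue of sham-operated or unimpacted mice was not analysed here, so a change on the contralateral side itself was not measured.

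Neuropeptides are cut from larger precursor proteins inside dense-core vesicles and released on sustained firing. Most act on G protein-coupled receptors, often at some distance from the releasing cell, and are then destroyed by peptidases on cell surfaces. In cortex, many precursors are made by particular classes of inhibitory interneurons or projection neurons, while peptides such as orexin, oxytocin and vasopressin reach it in axons from the hypothalamus. A receptor transcript and its ligand's transcript may therefore lie in different cells or different regions.

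The 9 genes that passed the test were 6 higher and 3 lower in ipsilateral tissue. Higher were the precursors Trh and Nts and the receptors Oprm1, Tacr1, Adcyap1r1 and Oxtr. Lower were the receptors Sstr4, Vipr1 and Cckbr. Calls are from limma across all 30142 genes at a Benjamini-Hochberg adjusted p under 0.05. By that rule 5.55% of all genes were called, 1.22% higher and 4.33% lower, against 21.4% of the 42 neuropeptide genes, 14.3% higher and 7.14% lower. The all-gene shares include dim genes. With the dimmest 50% of genes left out, calls over all remaining genes rose from 369 to 534 higher and from 1305 to 1637 lower. The neuropeptide genes left in gave 8 higher and 3 lower. Calls over all genes rose in both directions while fewer genes were tested, so both were more frequent among brighter genes. The all-gene shares of 1.22% and 4.33% are therefore low marks for the 42 in either direction. The larger share of lower calls among the 42 was not separated from brightness. Among the genes left in, higher calls outnumbered lower ones for the neuropeptide genes (8 and 3) but not over all genes (534 and 1637). Single arrays moved the counts over all genes and over the 42. Over all genes 111 were higher and 740 lower without contralateral replicate 1, 185 and 1039 without contralateral replicate 2, 124 and 795 without contralateral replicate 3, 173 and 835 without contralateral replicate 5, 183 and 878 without ipsilateral replicate 5, and 760 and 1607 without ipsilateral replicate 1. Among the 42 genes 1 was higher and 1 lower without contralateral replicate 1, 2 or 5, 10 were higher and 7 lower without ipsilateral replicate 1, and 2 to 8 were higher and 1 or 2 lower when any of the other 6 arrays was left out. The median difference was 0.12 on the log2 scale over the 42 genes and 0.02 over all genes, and the median absolute difference was 0.39 and 0.10. The 2 sides did not overlap for 6 of the 42 genes (14.3%), 4 higher and 2 lower, against 7.25% of all genes, 2.04% higher and 5.21% lower. An unadjusted p under 0.05 was reached by 21 of the 42 and by 21.3% of all genes. The members and lists were chosen with results of these arrays in view, so these shares are a description. Both sides gave 5 arrays, and the labels call them biological replicates without saying that each came from a separate mouse, so the p-values measure the spread between these samples.

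The stretch of 250 bases before the annotated start is shown for 4 of the called genes, because both called precursors and both of these receptors carry in it the core letters of the cAMP response element, the site through which CREB acts on many neuropeptide genes. Sequences are from RefSeq, build GRCm38.p6, 5′ to 3′ on the strand of the gene. The Trh window is chr6:92244651-92244900 on the minus strand and the Nts window chr10:102490419-102490668 on the minus strand. The Tacr1 window is chr6:82402225-82402474 on the plus strand and the Vipr1 window chr9:121642466-121642715 on the plus strand. Capitals mark the motifs searched on both strands.
Trh: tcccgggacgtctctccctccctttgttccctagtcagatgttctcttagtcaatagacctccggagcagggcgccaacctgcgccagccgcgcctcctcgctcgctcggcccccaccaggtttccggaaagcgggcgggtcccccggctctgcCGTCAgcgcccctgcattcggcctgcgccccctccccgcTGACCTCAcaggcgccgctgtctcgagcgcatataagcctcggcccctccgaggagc
Nts: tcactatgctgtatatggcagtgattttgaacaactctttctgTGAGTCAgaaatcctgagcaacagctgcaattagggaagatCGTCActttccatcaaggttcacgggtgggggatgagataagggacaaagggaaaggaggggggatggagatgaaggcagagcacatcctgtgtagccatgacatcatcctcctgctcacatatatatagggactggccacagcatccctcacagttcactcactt
Tacr1: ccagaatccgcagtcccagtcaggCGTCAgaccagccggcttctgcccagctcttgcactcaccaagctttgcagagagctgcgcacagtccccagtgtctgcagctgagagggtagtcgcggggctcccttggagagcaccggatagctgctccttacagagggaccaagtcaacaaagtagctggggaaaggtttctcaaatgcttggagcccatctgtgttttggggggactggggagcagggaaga
Vipr1: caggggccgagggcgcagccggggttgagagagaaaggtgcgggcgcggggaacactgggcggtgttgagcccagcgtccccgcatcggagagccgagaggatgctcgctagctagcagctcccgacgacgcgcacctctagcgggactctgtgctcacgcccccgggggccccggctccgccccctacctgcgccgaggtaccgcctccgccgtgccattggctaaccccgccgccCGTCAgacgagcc
The core TGACG, written CGTCA on the other strand, lay in 11 of the 34 listed genes with a promoter in the table and in 4 of the 9 called genes, against 17.8% of 32851 promoter windows. Listed genes were counted by gene, on any window a gene had, and the percentages are shares of single windows, so the units differ. In Trh the core began 96 bases before the start, in Nts 166, in Tacr1 226 and in Vipr1 13 bases before it. The full palindrome TGACGTCA, which contains the core, was in none of the 9 called genes, in the windows of Cartpt and Sstr2 among the listed genes, and in 1.55% of all windows. The AP-1 letters TGACTCA, or TGAGTCA on the other strand, began 207 bases before the start of Nts and were in 4.46% of all windows. TGACCTCA, letters known from the TRH promoter as a site for CREB and the thyroid hormone receptor, began 57 bases before the start of Trh, and it or its reverse complement was in 1.94% of all windows. These are matches of letters, and binding was not measured.

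**Figure D1:**
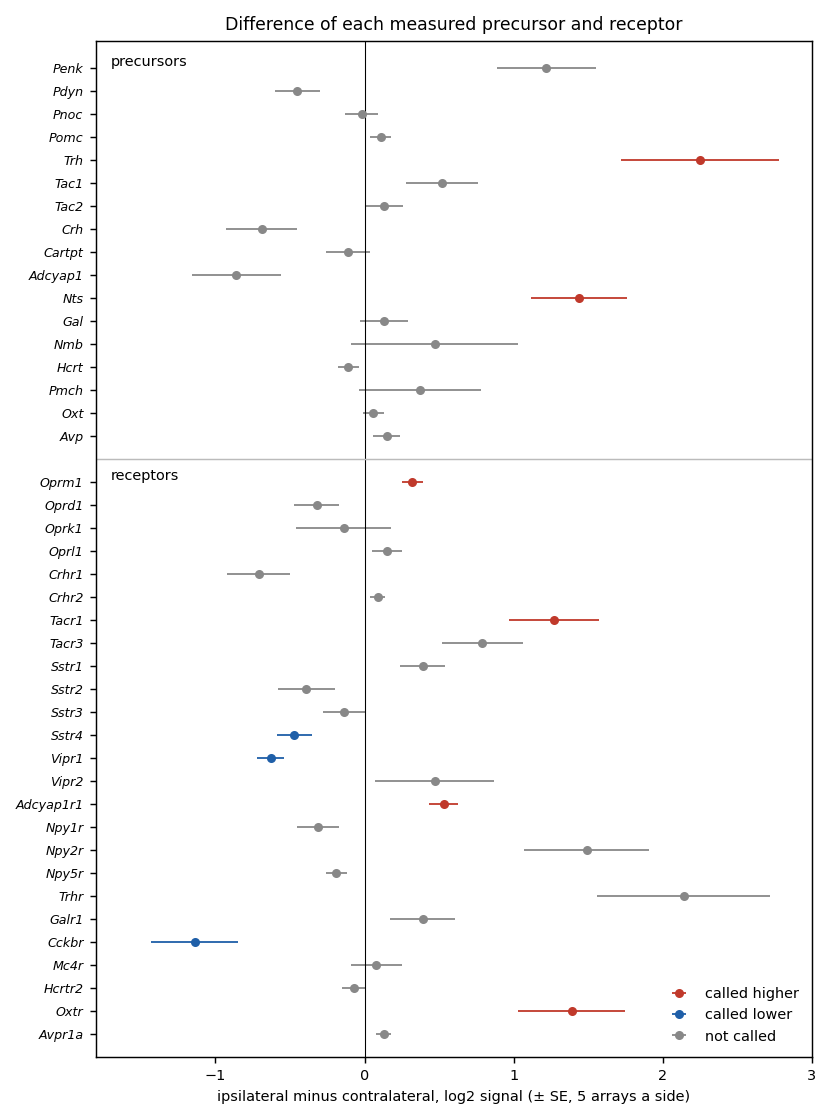
Difference between ipsilateral and contralateral tissue (x axis, log2 signal, point ± SE of the limma fit, 5 arrays a side) for each of the 17 measured precursors (above) and 25 receptors (below). Red points were called higher, blue points lower and grey points not called. Trh (2.25) has the largest positive and Cckbr (-1.14) the largest negative value, and the grey points of Trhr (2.14), Npy2r (1.49) and Penk (1.22) lie as far right as some called genes, with SEs of 0.58, 0.42 and 0.33.

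Marker scores of the tissue are given once for all genes below, and only the neocortical score had no overlap between sides. A mean score of 12 measured neocortical layer markers of 15 listed was 9.54 to 9.77 on ipsilateral and 10.12 to 10.31 on contralateral arrays, with 5 members lower and 1 higher. A score of 12 general neuronal markers was 12.31 to 12.73 on ipsilateral and 12.72 to 12.93 on contralateral arrays, with 4 members lower (Rbfox3, Nefl, Nefm and Nefh). Microglia and macrophage markers (14 genes, none called) scored 8.03 to 10.18 on ipsilateral and 7.69 to 8.45 on contralateral arrays, and 11 astrocyte markers 10.80 to 11.95 on ipsilateral and 10.53 to 10.93 on contralateral arrays, with Aqp4 called higher. Scores overlapped for 8 striatal markers (6.83 to 7.75 ipsilaterally, 7.05 to 7.40 contralaterally, Foxp1 and Scn4b lower), 9 hippocampal markers (6.81 to 8.00 ipsilaterally, 6.80 to 7.44 contralaterally, Wfs1 higher), 10 thalamic markers (7.79 to 8.12 ipsilaterally, 7.79 to 8.61 contralaterally, Rora, Ramp3 and Pdp1 lower) and 7 oligodendrocyte markers (9.61 to 10.92 ipsilaterally, 10.20 to 11.64 contralaterally, Opalin lower). The striatal score of 7.75 was that of ipsilateral replicate 3, and the other 4 ipsilateral arrays scored 6.83 to 7.16. The 15 inhibitory neuron markers scored 10.19 on ipsilateral replicate 1 and 8.71 to 9.11 on the other 4 ipsilateral arrays, against 8.94 to 9.04 contralaterally, with Pvalb and Vip lower. The 8 choroid plexus markers, none called, scored 6.93 to 9.58 on the arrays numbered 2 and 4 of both sides and 5.44 to 5.92 on the other 6. The 6 endothelial markers, none called, scored 8.64 to 9.34 on ipsilateral and 8.67 to 9.15 on contralateral arrays. The part of these features in the neuropeptide differences was not tested, and in bulk tissue fewer cells of a type and less RNA per cell cannot be told apart. Although the labels name both sexes, Xist stood at 4.53 to 4.67, below the array median, on all 10 arrays.

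Among the precursors, Trh, which encodes thyrotropin-releasing hormone, gave the largest difference of all 42 genes. Its log2 signal was 8.50, 5.16, 7.61, 5.86 and 6.97 on ipsilateral replicates 1 to 5, against 4.68, 4.28, 4.41, 4.90 and 4.57 on contralateral replicates 1 to 5. Every ipsilateral array was above every contralateral one, but the ipsilateral values were widely spread, with replicate 2 nearest to the contralateral side. The means were 6.82 ± 1.34 ipsilaterally and 4.57 ± 0.24 contralaterally (SD, n = 5 a side), a difference of 2.25 ± 0.53 (SE, adjusted p = 0.0335, limma). The contralateral mean lay below 4.71, the lowest array median over all rows, where a row may hold background alone, and the fold of 4.76 is uncertain for that reason. The adjusted p was above 0.05 when ipsilateral replicate 3 or 5, or contralateral replicate 1, 2, 3 or 5, was omitted (up to 0.0839).

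Nts, the precursor of neurotensin and neuromedin N, was the other precursor called. It read 6.61, 7.51, 8.10, 7.82 and 8.62 on the ipsilateral arrays and 6.06, 5.97, 6.67, 6.69 and 6.05 on the contralateral ones. Ipsilateral replicate 1 fell inside the contralateral range and the other 4 were above it. The difference was 1.44 ± 0.32 (adjusted p = 0.0278, limma), or 2.72-fold. The call was lost on omission of ipsilateral array 3, 4 or 5 or of contralateral array 1, 2 or 5, with adjusted p reaching 0.0766. Where Trh was highest, on ipsilateral replicate 1, Nts was at its ipsilateral lowest, so these precursors did not rank the ipsilateral arrays alike. The neurotensin receptors Ntsr1 (0.26 ± 0.23) and Ntsr2 (0.12 ± 0.18) did not pass.

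Of the 4 opioid precursors none was called. Penk, the precursor of the enkephalins, read 9.61, 8.36, 9.92, 9.20 and 8.12 ipsilaterally and 7.70, 7.55, 7.92, 8.34 and 7.61 contralaterally. All but ipsilateral replicate 5 exceeded the contralateral range, and the difference of 1.22 ± 0.33 had an adjusted p of 0.0589 in limma. Without ipsilateral replicate 2 or 5 Penk passed (adjusted p = 0.0483 and 0.0276). Pdyn, which encodes the dynorphins, pointed the other way at -0.45 ± 0.15 (adjusted p = 0.126), with ipsilateral replicate 1 (7.02) among the contralateral arrays (6.83 to 7.15) and the other 4 below them (6.13 to 6.80). Without ipsilateral replicate 1 Pdyn was called lower at -0.57 (adjusted p = 0.0241, limma). Pnoc, the nociceptin precursor (-0.02 ± 0.11), and Pomc, the precursor of beta-endorphin and corticotropin (0.11 ± 0.07), did not pass.

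The stress-related precursors Crh and Adcyap1 had negative differences that did not pass over all 10 arrays. Crh, corticotropin-releasing hormone, read 7.51, 6.63, 6.44, 6.22 and 6.08 ipsilaterally and 7.59, 7.33, 7.08, 7.02 and 7.32 contralaterally (-0.69 ± 0.24, adjusted p = 0.126). Adcyap1, which encodes the peptide PACAP, read 7.56, 6.32, 6.55, 6.44 and 5.63 ipsilaterally and 7.57, 6.89, 7.60, 7.20 and 7.52 contralaterally (-0.86 ± 0.30, adjusted p = 0.127). In both, ipsilateral replicate 1 stood among the contralateral arrays while the other 4 were below all of them. Without that array both were called lower, at -0.93 (adjusted p = 0.00497) for Crh and -1.12 (adjusted p = 0.0119) for Adcyap1.

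The remaining precursors did not pass. Tac1, the source of substance P and neurokinin A, had a difference of 0.52 ± 0.24 with its highest value on ipsilateral replicate 3 (7.87). Tac2, the neurokinin B precursor (0.13 ± 0.13), and Cartpt, a peptide of reward and feeding circuits (-0.11 ± 0.15), overlapped between sides. Nmb, the neuromedin B precursor, read 8.00 on ipsilateral replicate 1 and 4.69 to 4.99 on the other 4, against 4.75 to 5.41 contralaterally. Its mean difference of 0.47 ± 0.56 therefore came from 1 array, and it was -0.16 without that array. Pmch, which encodes melanin-concentrating hormone, likewise had 1 high value, 7.25 on ipsilateral replicate 2, against 4.88 to 5.32 contralaterally (0.37 ± 0.41).

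Galanin and the remaining precursors known from the hypothalamus had small differences that did not pass over all 10 arrays. Hcrt, the orexin precursor, lay below the array median on all 10 arrays (4.15 to 4.28 ipsilaterally, 4.15 to 4.51 contralaterally, -0.11 ± 0.07). Gal, which encodes galanin, was above it on 1 array (0.13 ± 0.16) and Avp, the vasopressin precursor, on 3 (0.15 ± 0.09). Without contralateral replicate 4 Gal was called higher at 0.3 (adjusted p = 0.0303, limma). Oxt, the oxytocin precursor, read 5.34 to 5.50 ipsilaterally and 5.16 to 5.51 contralaterally (0.06 ± 0.07). A list of 10 hypothalamic transcription factor genes scored 4.29 to 4.45 on ipsilateral and 4.25 to 4.33 on contralateral arrays, below every array's median, and none of them was called.

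**Figure D2:**
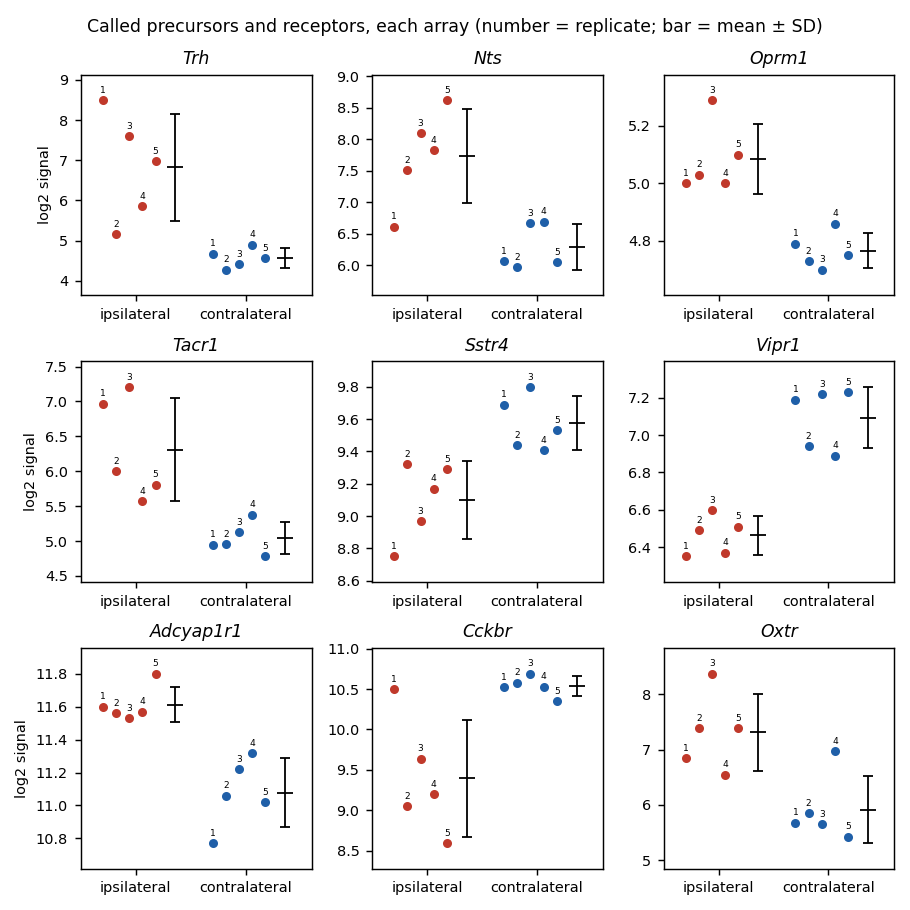
Log2 signal on every array for the 9 called genes, ipsilateral left and contralateral right, with the replicate number above each point and a bar for the mean ± SD of 5 arrays beside it. Trh, Oprm1, Tacr1 and Adcyap1r1 have every ipsilateral point above every contralateral point, Vipr1 and Sstr4 every ipsilateral point below, and Nts, Cckbr and Oxtr overlap.

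Among the receptors, 4 of 25 were called higher and 3 lower. The receptors for VIP and PACAP, related peptides that act through shared class B receptors, gave the calls least dependent on single arrays. Vipr1, a receptor for both peptides, read 6.35, 6.49, 6.60, 6.37 and 6.51 ipsilaterally and 7.19, 6.94, 7.22, 6.89 and 7.23 contralaterally. The highest ipsilateral array (6.60) was below the lowest contralateral one (6.89), and both groups were tight (6.46 ± 0.10 ipsilaterally and 7.09 ± 0.17 contralaterally). The difference of -0.63 ± 0.09 had the smallest adjusted p of the set, 0.00283 in limma, and passed without any 1 array (up to 0.0115).

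Adcyap1r1, the PACAP-selective receptor, was higher. It read 11.60, 11.56, 11.53, 11.57 and 11.80 ipsilaterally and 10.77, 11.06, 11.22, 11.32 and 11.02 contralaterally, with no overlap. The difference was 0.53 ± 0.10 (adjusted p = 0.0128, limma) and stayed below an adjusted p of 0.05 in each of the 10 fits that omitted 1 array (up to 0.0382). Vipr2, the third receptor of the group, read 7.45 on ipsilateral replicate 1 and 5.35 to 5.48 on the other 4, against 5.03 to 6.13 contralaterally, and did not pass (0.47 ± 0.40). Of the ligands, Vip, a marker peptide of one interneuron class and not among the 44 genes, was lower at 9.49 ± 0.43 ipsilaterally and 10.62 ± 0.15 contralaterally (-1.12 ± 0.18, adjusted p = 0.00586), beside the -0.86 of Adcyap1 that did not pass.

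Tacr1, the substance P receptor, was higher in ipsilateral tissue. It read 6.97, 6.0, 7.21, 5.57 and 5.81 on ipsilateral and 4.95, 4.96, 5.13, 5.38 and 4.78 on contralateral arrays. No array overlapped, and ipsilateral replicates 1 and 3 were the highest. The difference was 1.27 ± 0.30 (2.41-fold, adjusted p = 0.0341, limma). The contralateral values lay close to the contralateral array medians of 4.71 to 4.77, where a row may hold background, so the fold is uncertain. The call ended on omission of ipsilateral array 2 or of contralateral array 1, 2, 3 or 5 (at most 0.0861). It also ended with quantile (0.0604) or cyclic loess scaling (0.0530). Tacr3, the neurokinin B receptor, read 5.63, 6.78, 6.73, 6.71 and 7.24 ipsilaterally and 5.94, 5.54, 5.87, 6.30 and 5.47 contralaterally. Its difference of 0.79 ± 0.27 did not pass (adjusted p = 0.118), and without ipsilateral replicate 1, the only ipsilateral array inside the contralateral range, it was 1.04 (adjusted p = 0.00815).

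Oxtr, the oxytocin receptor, was higher by a narrow margin of the test. It read 6.85, 7.39, 8.37, 6.55 and 7.39 ipsilaterally and 5.68, 5.85, 5.65, 6.97 and 5.43 contralaterally. Contralateral replicate 4 (6.97) stood apart from the other contralateral arrays and above ipsilateral replicates 1 and 4. The difference was 1.39 ± 0.36 (adjusted p = 0.0496, limma), and the call ended on omission of ipsilateral array 2, 3 or 5 or of contralateral array 1, 2, 3 or 5 (at most 0.120), with quantile (0.0675) or cyclic loess scaling (0.0580) and with trended and robust variance (0.0503). Its ligand's precursor Oxt had the difference of 0.06 ± 0.07 given above (adjusted p = 0.679). The vasopressin receptor Avpr1a lay below the array median on all 10 arrays (0.13 ± 0.05, adjusted p = 0.188).

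Of the 4 opioid receptors only Oprm1, the mu receptor on which morphine acts, was called. It read 5.00, 5.03, 5.29, 5.00 and 5.10 ipsilaterally and 4.79, 4.73, 4.70, 4.86 and 4.75 contralaterally, so the groups did not overlap although the difference was small (0.32 ± 0.07, adjusted p = 0.0225, limma). Those values lie close to the array medians, which were 4.79 to 4.84 ipsilaterally and 4.71 to 4.77 contralaterally. With each array centred on its median the difference was 0.25 (adjusted p = 0.0657), and it did not pass with quantile (0.106) or cyclic loess scaling (0.0807), nor on omission of ipsilateral array 5 or of contralateral array 1, 2, 3 or 5 (at most 0.0653). Oprd1, the delta receptor for enkephalins, had -0.32 ± 0.15, Oprk1, the dynorphin receptor, -0.14 ± 0.32 and Oprl1, the nociceptin receptor, 0.15 ± 0.10, and none of these passed over all 10 arrays. Oprd1 read 7.82 on ipsilateral replicate 1 and 7.00 to 7.13 on the other 4, against 7.43 to 7.63 contralaterally. Without that array it was called lower at -0.47 (adjusted p = 0.00363, limma). Beside these receptors Penk had its positive difference of 1.22 and Pdyn its negative one of -0.45.

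Of the 4 measured somatostatin receptors 1, Sstr4, was called, and it was lower. It read 8.75, 9.32, 8.97, 9.17 and 9.29 ipsilaterally and 9.69, 9.44, 9.80, 9.41 and 9.53 contralaterally, without overlap (-0.47 ± 0.12, adjusted p = 0.0473, limma). The call held without ipsilateral replicate 2 and was lost without any other single array (up to 0.118), and it was lost with quantile (0.0940) and cyclic loess scaling (0.102). Sstr1 had a difference of 0.39 ± 0.15, Sstr2 of -0.39 ± 0.19 and Sstr3 of -0.14 ± 0.14, and none of these passed over all arrays. Without ipsilateral replicate 1 Sstr1 was called higher at 0.49 (adjusted p = 0.0462, limma). Somatostatin itself (Sst) had a difference of -0.19 ± 0.23.

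Cckbr, the main brain receptor for cholecystokinin, was lower in ipsilateral tissue, at 9.40 ± 0.72 against 10.53 ± 0.12 in contralateral tissue. Its values were 10.50, 9.05, 9.64, 9.20 and 8.59 ipsilaterally and 10.52, 10.58, 10.69, 10.53 and 10.35 contralaterally. Ipsilateral replicate 1 lay among the contralateral arrays and the other 4 were below all of them. The difference of -1.14 ± 0.29 (adjusted p = 0.0455, limma) was -1.41 (adjusted p = 0.00199) without ipsilateral replicate 1, and it did not pass without any other single array (up to 0.111) or with quantile (0.0641) or cyclic loess scaling (0.0658). The cholecystokinin precursor Cck had a difference of -0.39 ± 0.13 (adjusted p = 0.102).

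The neuropeptide Y receptors gave no call. Npy2r, a largely presynaptic receptor, read 7.33, 9.45, 9.46, 8.32 and 8.79 ipsilaterally and 6.61, 7.86, 6.95, 7.76 and 6.71 contralaterally (1.49 ± 0.42, adjusted p = 0.0650). Without ipsilateral replicate 1 it was called at 1.83 (adjusted p = 0.0106). Npy1r (-0.31 ± 0.14) and Npy5r (-0.19 ± 0.07), largely postsynaptic receptors, had negative differences that did not pass (adjusted p = 0.221 and 0.144). Npy, the precursor of their ligand, had -0.62 ± 0.35.

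Crhr1, the main corticotropin-releasing hormone receptor of the forebrain, had a negative difference that did not pass over all 10 arrays. It read 8.21, 7.23, 7.20, 6.94 and 6.96 ipsilaterally and 7.96, 8.00, 7.97, 7.95 and 8.19 contralaterally (-0.71 ± 0.21, adjusted p = 0.0805). Ipsilateral replicate 1 was the highest of all 10 arrays and the other 4 were below every contralateral one. Without it, Crhr1 was called lower at -0.93 (adjusted p = 0.000948). Crhr2 differed by 0.09 ± 0.05, the galanin receptor Galr1 by 0.39 ± 0.22, the melanocortin receptor Mc4r by 0.08 ± 0.17 and the orexin receptor Hcrtr2 by -0.07 ± 0.08, and none passed.

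In the TRH system the precursor was called higher and the ectoenzyme that degrades the peptide lower, while the receptor did not pass. Trhr, the receptor through which TRH raises intracellular calcium, read 6.64, 9.04, 9.29, 8.66 and 9.08 ipsilaterally and 5.23, 5.88, 6.41, 8.00 and 6.47 contralaterally. Its difference of 2.14 ± 0.58 was the next largest after Trh but had an adjusted p of 0.0590. It passed without ipsilateral replicate 1 (2.62, adjusted p = 0.00881) or contralateral replicate 4 (2.54, adjusted p = 0.0213), the lowest ipsilateral and the highest contralateral array. Trhde, that ectoenzyme, read 10.35, 9.52, 9.28, 9.38 and 9.28 ipsilaterally and 11.09, 11.18, 11.13, 10.61 and 10.92 contralaterally. Those groups did not overlap (-1.42 ± 0.20, adjusted p = 0.00305, limma), and the call held without any 1 array (up to 0.0129). Pgpep1, a cytosolic peptidase that removes the pyroglutamyl end that TRH carries, was higher by 0.25 ± 0.06 (adjusted p = 0.0452), a call that held in 2 of the 10 fits that omitted 1 array, those leaving out ipsilateral array 3 and contralateral array 5 (otherwise at most 0.115), and that ended with arrays centred on their medians or quantile scaling. Trhr2, the other TRH receptor of mice, had -0.55 ± 0.17 (adjusted p = 0.0912).

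**Figure D3:**
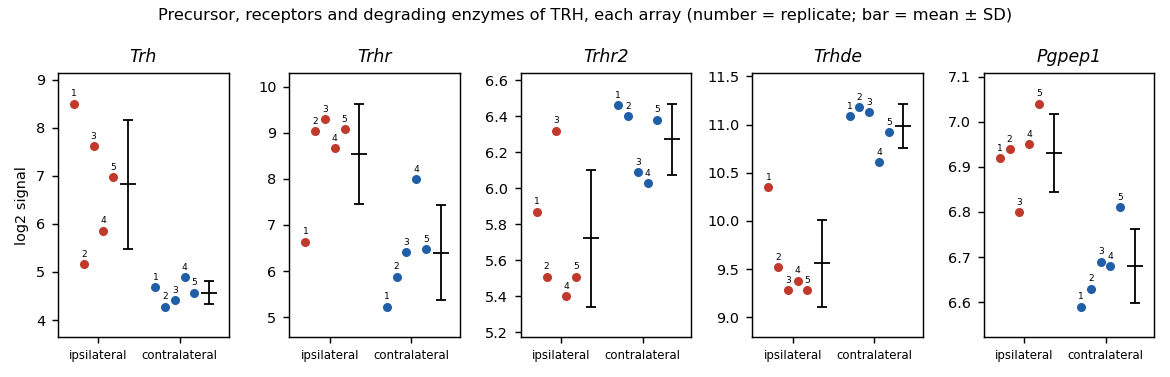
Log2 signal on every array for the TRH precursor (Trh), its receptors (Trhr, Trhr2) and 2 peptidases that can cleave it (Trhde, Pgpep1), ipsilateral left and contralateral right, with replicate numbers and a bar for the mean ± SD of 5 arrays. Trh is higher and Trhde lower on every ipsilateral array, while ipsilateral replicate 1 stands apart from the other 4 in Trhr (6.64) and Trhde (10.35).

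Other genes of the neuropeptide pathway were counted from 4 lists of 131 genes, of which 120 were measured. Of these 5 were called higher and 8 lower, 10.8% against 5.55% of all genes, and their median difference was 0.01. Of 36 other precursors 3 were lower: Vip, Apln, which encodes the vascular peptide apelin (-1.09 ± 0.20, adjusted p = 0.00982), and Nppc, the precursor of C-type natriuretic peptide (-0.57 ± 0.13, adjusted p = 0.0323). Of 44 other receptor genes 3 were higher and 1 lower. Nmbr, the neuromedin B receptor, stood at 6.58 ± 0.53 ipsilaterally and 5.05 ± 0.21 contralaterally without overlap (1.53 ± 0.23, adjusted p = 0.00387), Glp1r, the glucagon-like peptide receptor, differed by 1.36 ± 0.28 (adjusted p = 0.0176) and Ednrb, the endothelin receptor found in astrocytes, by 0.92 ± 0.22 (adjusted p = 0.0340). Ramp3, an accessory protein of calcitonin-family receptors, was lower (5.85 ± 0.09 ipsilaterally, 6.76 ± 0.05 contralaterally, -0.91 ± 0.06, adjusted p = 0.000109). The Nmbr groups were apart on all 10 arrays, whereas its ligand gene Nmb was high on ipsilateral replicate 1 alone.

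Of 25 measured genes of precursor processing and dense-core vesicles 3 were lower and none higher. Pcsk1, a convertase that cuts many precursors at paired basic residues, stood at 9.13 ± 0.40 ipsilaterally and 10.45 ± 0.14 contralaterally (-1.31 ± 0.17, adjusted p = 0.00202). Scg5, which encodes the chaperone of the convertase made from Pcsk2, had a difference of -0.69 ± 0.09 (adjusted p = 0.00197) and Cadps2, a priming factor for dense-core vesicle release, one of -1.06 ± 0.21 (adjusted p = 0.0168). The 3 groups of values did not overlap between sides. The carboxypeptidase Cpe (0.24 ± 0.11), the amidating enzyme Pam (-0.20 ± 0.07) and the granins Chga (-0.25 ± 0.14), Chgb (0.01 ± 0.10) and Scg2 (-0.16 ± 0.38) did not pass. Of 15 peptide-degrading enzymes 2 were higher and 1 lower: Pgpep1, the endothelin-converting enzyme gene Ece2 (0.50 ± 0.12, adjusted p = 0.0405) and Trhde. Of these 13 calls, those of Vip, Apln, Nmbr, Ramp3, Pcsk1, Scg5 and Trhde held in each fit without 1 array. Those of the other 6 did not: Glp1r was lost without contralateral replicate 1 or 3 (up to 0.0549), Cadps2 without contralateral replicate 1 (0.0518), Nppc without ipsilateral array 2 or any of contralateral arrays 1, 3, 4 and 5 (at most 0.0751), Ednrb without any of ipsilateral arrays 4 and 5 and contralateral arrays 1, 3, 4 and 5 (at most 0.0925), and Ece2 in 8 of 10 such fits, all but those that left out ipsilateral array 1 or contralateral array 4 (at most 0.102).

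The 42 genes varied more between ipsilateral than between contralateral arrays. The SD was larger on the ipsilateral side for 37 of 42 (88.1%), against 63.6% of all genes, and the median SD was 0.356 ipsilaterally and 0.177 contralaterally. Ipsilateral replicate 1 stood apart from the other 4 for a number of genes, and the share of all genes with such a pattern was not counted. Its median absolute deviation from the contralateral mean over the 42 genes was 0.24, against 0.30 to 0.42 on the other 4 ipsilateral arrays. Ipsilateral replicate 1 lay inside the contralateral range, with the other 4 ipsilateral arrays all above it, for 5 genes (Nts, Crhr2, Tacr3, Npy2r and Trhr), and with the other 4 all below it for 4 genes (Pdyn, Crh, Adcyap1 and Cckbr). It also had the highest Trh, Nmb and Vipr2 values and the inhibitory neuron score of 10.19 given above. When both sides lost the arrays with the high choroid plexus scores, an omission added after the values were seen, only Trh (3.14, adjusted p = 0.0179) and Vipr1 (-0.73, adjusted p = 0.0236) of the 9 were called, from 3 arrays a side. The same fit called 77 of all genes higher and 289 lower.

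**Figure D4:**
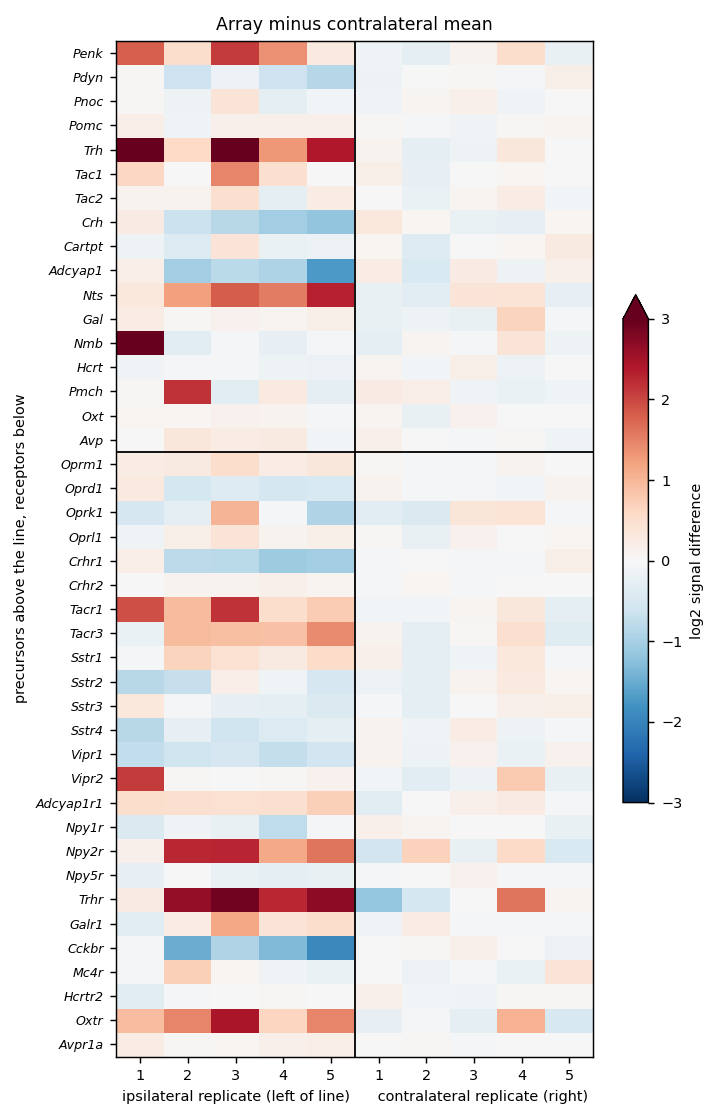
Log2 signal of each array minus the contralateral mean of the gene, for the 17 precursors (above the line) and 25 receptors (below it), with ipsilateral replicates 1 to 5 in the left columns and contralateral replicates 1 to 5 in the right. Red is higher and blue lower, on a scale that ends at 3 in both directions. The left column, ipsilateral replicate 1, is near 0 for Crh, Adcyap1, Cckbr and Tacr3, where the next 4 columns are coloured, and deep red for Nmb and Vipr2.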

How the data were processed

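RNA from 10 tissue samples was hybridised to Affymetrix whole-transcript arrays (RNeasy isolation and WT PLUS labelling, per the labels' protocols). The deposited log2 signals came from the authors' run of Transcriptome Analysis Console (version 4.0), as the submitters' processing notes name it. What background correction, normalization and build they used is not given in the sources used here. That the scale is log2 follows from its range, 1.97 to 19.93.

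Probe rows were named from the array annotation, with symbols updated through RefSeq where Entrez identifiers matched. Rows with 1 symbol were kept, and the brightest row stood for a gene, which gave 30142 genes. Ipsilateral minus contralateral was fitted with limma (version 3.58.1, under R 4.3.3) on the 10 arrays, using lmFit and eBayes and no covariates. Calls are two-sided at a Benjamini-Hochberg adjusted p under 0.05 over all genes. All 42 measured members entered without a filter on dim genes. The steps were tested on simulated data. List scores are mean log2 signals of the measured members. Array medians are over all 65956 rows, of which 33206 were unnamed. Medians over the tested genes were higher, at 5.48 to 5.65, so a gene above the array median can still be in the dimmer part of the genes. The replicate numbers were checked for pairing (see the closing section). With 5 arrays a side, the number of arrays limits the precision. The labels give no batch or scan date, and batch was not tested.

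The members, the lists and the rule for named genes (every member, called genes of the other neuropeptide lists, and called markers where a list held 5 or fewer) were chosen with earlier results of these data known. Genes outside the member list that are named without a call were chosen after their values were seen. Alternatives were a fixed or random replicate block, rescaling (medians, quantiles or cyclic loess), omission of the dimmest 25% or 50% of genes, the mean of a gene's rows, trended and robust variance, array weights, calls at 0.01 and omission of each array in turn. Motifs were searched in the 250 bases upstream of the start in the RefSeq promoter table.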

Additional observations from a re-analysis of the deposited data

Results flagged for a closer look

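A single array stood far from the other 4 of its side in 15 of 84 gene and side combinations. The nominal rate of about 1 in 20 is for independent values, whereas these combinations share the same 10 arrays. The rate over all genes was not counted, so the 15 are a description. Of the 15, 6 were on ipsilateral replicate 1 and 3 on contralateral replicate 4. On ipsilateral replicate 1, Nmb was high at 8.00 (next 4.99), Vipr2 at 7.45 (next 5.48), Oprd1 at 7.82 (next 7.13) and Crhr1 at 8.21 (next 7.23), while Trhr was low at 6.64 (next 8.66) and Hcrtr2 at 5.72 (next 6.0). This array also had the highest inhibitory neuron score (10.19), whose part in these values was not tested. On contralateral replicate 4, Oxtr was high at 6.97 (next 5.85), Vipr2 at 6.13 (next 5.26) and Gal at 5.10 (next 4.37). On ipsilateral replicate 2, Pmch was high at 7.25 (next 5.37) and Mc4r at 5.75 (next 5.10), and Pomc was low at 4.72 (next 5.00). Adcyap1r1 was high on ipsilateral replicate 5 at 11.80 (next 11.60), Crhr1 on contralateral replicate 5 at 8.19 (next 8.00) and Galr1 on contralateral replicate 2 at 5.49 (next 5.23).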

How the results depend on the processing

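Of the 9 calls only that of Vipr1 held under every alternative run, and Adcyap1r1 held without any 1 array of the 10. With a replicate block, 2 neuropeptide genes were called higher (Nts and Trhr) and 1 lower (Vipr1). Of the other pathway genes 1 was higher and 7 lower, and of all 30142 genes 177 were higher and 769 lower. The deviations of same-numbered arrays from their group means correlated at -0.40 to 0.26, which does not establish a pairing by number or show its absence. Only replicate 1 correlated best with its own number, while the choroid plexus scores were high on arrays 2 and 4 of both sides. With the block, adjusted p was 0.0546 for Trh and 0.0519 for Adcyap1r1. Arrays centred on their medians gave 5 higher and 5 lower neuropeptide genes and 3 and 16 other pathway genes. Quantile scaling gave 3 and 1 (other pathway genes 3 higher and 8 lower) and cyclic loess 3 and 1 (other pathway genes 5 higher and 8 lower). Over all genes the split was 369 higher and 1305 lower as deposited, 232 and 2623 with centred medians, 297 and 1113 with quantile and 464 and 970 with loess scaling; the median of all genes stood at 0.02, -0.05, 0 and 0.01. Leaving out the dimmest 25% or 50% of genes gave 8 higher, with Penk and Trhr added (at 50% also Npy2r, while Oprm1 was left out as dim). Either way 3 were lower. Over all remaining genes 472 were higher and 1473 lower at 25%, and 534 and 1637 at 50%. Array weights gave 5 lower, and a threshold of 0.01 gave 0 higher and 1 lower. Of all genes, array weights gave 656 higher and 1614 lower, and the threshold of 0.01 gave 47 and 537. At 0.01, 1 of the other pathway genes was higher, and Vip, Apln, Ramp3, Pcsk1, Scg5 and Trhde were still called lower. Leaving out each array in turn gave 1 to 10 neuropeptide genes higher and 1 to 7 lower, and 1 to 7 other pathway genes higher. Of all genes, 111 to 760 were higher and 740 to 1607 lower in these fits. With arrays 2 and 4 omitted from each side, added after seeing the data, 1 neuropeptide gene was higher and 1 lower, and 1 and 2 other pathway genes. That fit, which fewer samples entered, called 77 of all genes higher and 289 lower. Signs turned for uncalled genes: Oxt was -0.01 with centred medians and with quantile scaling, and without arrays 2 and 4 Oxt was -0.02, Pnoc 0.10, Pmch -0.21 and Mc4r -0.18. Over the fits without 1 array Nmb ranged from -0.16 to 0.67, Pnoc from -0.12 to 0.05, Pmch from -0.08 to 0.55, Oprk1 from -0.43 to 0.05 and Mc4r from -0.07 to 0.18. The causes were not tested. Dim genes near the array medians may hold background alone.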
